A study of Danio rerio with 12 samples.

Results

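The genes described here are the cytokines, chemokines and colony-stimulating factors of the zebrafish, their receptors, the suppressors of cytokine signalling (SOCS) and inducible nitric oxide synthase (NOS2). They were chosen by name, as every row of the deposited gene table whose symbol begins with the stem of one of these families. That gave 172 of the 19983 rows. By role they were 94 ligands, 60 receptors, 12 SOCS genes, 2 NOS2 rows and 4 rows that share the naming stem without being any of these. A further 15 matching names were not analysed here.

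RNA came from whole larvae of the Tg(fli:EGFP) line, which carries a green fluorescent reporter of blood vessels, at 120 hours after fertilization. The 3 groups were larvae given iron oxide nanoparticles with a dextran coat (Dx-IONP), larvae labelled IC, and control larvae. IC is an abbreviation without a key in the labels. As the protocol names an iron condition beside those of nanoparticle and control, IC is taken here as the iron condition. Each group was 1 pool of 20 animals made into 1 poly(A) RNA library, and the reporter line is shared by all 3 groups. The 12 deposited samples are these 3 libraries on 4 sequencing lanes each. Dose and exposure time are not given in the sources used here. As the series states it, the purpose of the sequencing was to look for mechanisms of toxicity of the particles in the larva.

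Cytokines are secreted proteins that cells use to direct inflammation, blood cell production and tissue repair. Chemokines are the subset that guides migrating cells, through receptors that couple to G proteins. Many interleukin and interferon receptors act through JAK kinases and STAT factors, which in turn induce some of the SOCS genes, whose products shut the receptors down. Receptors of the interleukin 1 and TNF families act mainly through NF-kB. In the zebrafish larva, these signals come from and act on macrophages, neutrophils, epithelia and other tissues, while lymphocytes are only beginning to mature in the thymus.

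The libraries held 55381504 reads for Dx-IONP, 48283541 for IC and 84043873 for control. The 172 genes took 0.137% of the reads in the Dx-IONP library, 0.219% in the IC library and 0.117% in the control library. Levels are given as CPM, reads scaled to library size, after TMM scaling, which sets the libraries to a common level over most genes. A gene was tested where it reached 1 CPM in at least 1 library, which 89 of the 172 did. It was called higher or lower where the 2 libraries differed at least 2-fold and the exact 95% counting interval of their ratio excluded equality. No test between conditions is possible with a single library for each. The interval covers counting error only, lanes are not replicates, and each call compares 2 libraries and not 2 treatments. The libraries stood far apart across the whole transcriptome, so the counts over all members are set beside the share of all 16807 tested genes that passed the same rule. The name of the Dx-IONP library carries a number away from those of the other 2, and the labels do not say whether it was prepared separately. RNA per cell and the number of cells of a type cannot be told apart in whole larvae. Levels of different genes are not compared, because transcript lengths were not used here.

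Against control, the Dx-IONP library had more members called higher than lower, and the receptors leaned the same way. Of the 89 tested genes, 35 were higher and 16 lower, so that 57.3% were called, where 45.1% of all tested genes were, and 49.6% of those under 10 CPM in every library. The higher calls made up 39.33% of the members and 20.9% of all tested genes, and the lower calls 17.98% of the members and 24.2% of all tested genes. The median log2 ratio of the 89 was 0.61, beside 0.03 over all tested genes. Among receptors 13 of 35 were higher and 4 lower. Among ligands 15 of 38 were higher and 8 lower, but scaling by total reads alone turned this to 8 higher and 9 lower, and the ligand median from 0.59 to -0.04. That scaling shifted the median of all genes to -0.35, with 2301 of 16802 genes higher and 5334 lower. On it 21 of 85 members were higher and 17 lower, and 9 receptors were higher and 4 lower. Some ligands were tested because they reached 1 CPM in Dx-IONP alone, which favours a higher call. At 10 CPM or more in at least 1 library, 4 of 11 ligands were higher and 2 lower.

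IC against control gave fewer calls, and with the filter at 1 CPM the ligands were evenly split. Of the 89 genes 21 were higher and 9 lower, 33.7% in all, against 29.2% of all tested genes and 29.6% of those under 10 CPM. Higher calls were 23.6% of the members and 14.1% of all tested genes, and lower calls 10.1% of the members and 15.1% of all tested genes. The median was 0.33. Ligands gave 8 higher and 8 lower calls of 38. At 10 CPM or more in at least 1 library, 5 of 11 ligands were higher and 0 lower. All 11648 genes at that level gave 1750 higher and 1633 lower. Without chemokines named as numbered copies, a choice made after seeing the data, 8 of 27 ligands were higher and 1 lower. Receptors gave 9 higher and 1 lower calls of 35. The single receptor lower in IC was tnfrsf14.

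Dx-IONP against IC, which shares a library with each of the other comparisons, gave 29 higher and 24 lower calls, 59.6% of the 89 against 50.6% of all tested genes and 52.6% of those under 10 CPM. Higher calls were 32.6% of the members and 24.1% of all tested genes, while lower calls were 27.0% of the members and 26.5% of all tested genes. With total reads as the only scaling the split turned to 22 higher and 24 lower of 85, beside 2936 higher and 5411 lower of 16802 genes. Ligands gave 18 higher and 10 lower calls, with a median of 0.79. It fell to 0.53 with 4 genes at 0 reads in 1 library put at the bound that a floor of 3 reads allows. On total reads the ligands gave 13 higher and 10 lower calls with a median of 0.02. The median was 0.05 without chemokines named as numbered copies and 0.10 without members whose lanes differed beyond counting error. Receptors gave 8 in each direction, or 6 higher and 8 lower on total reads.

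**Figure D1:**
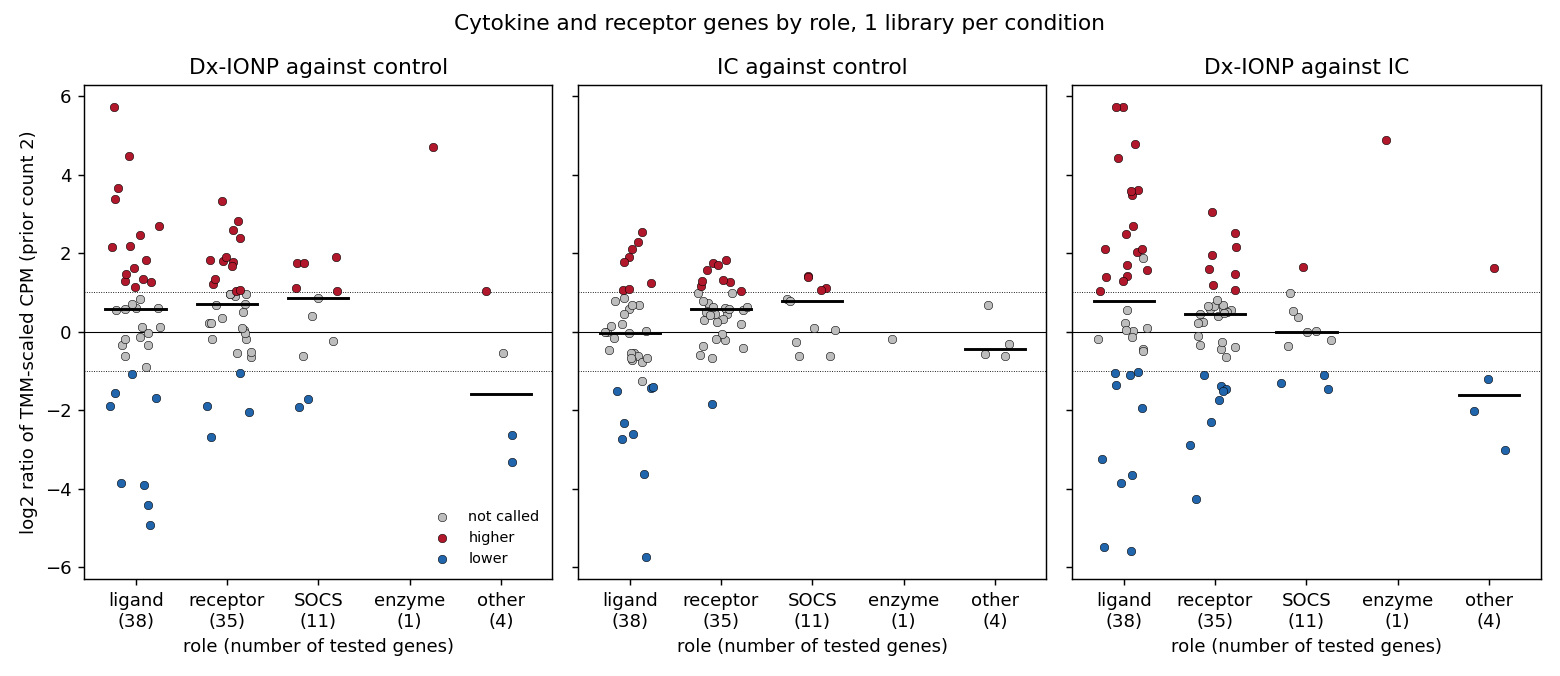
Log2 ratio of TMM-scaled CPM for the 89 tested genes, 1 point per gene, by role, with 1 panel for each pair of libraries. Red points were called higher, blue points lower and grey points neither, horizontal bars are medians and dotted lines mark 2-fold. The ligands run from -4.93 to 5.72 in Dx-IONP against control, and the receptors from -2.70 to 3.35.

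On the TMM scale, ligands and receptors also differed in how many reached 1 CPM in each library. In the Dx-IONP library 31 of the 94 ligands did, against 21 in IC and 21 in control, and 16 did in every library. Among the 60 receptors the numbers were 31 in Dx-IONP and 32 each in IC and control, with 28 in every library. TMM scaling raised every level in Dx-IONP (factor 0.857) and lowered those in IC (1.053) and control (1.11). On total reads 34 ligands reached 1 CPM in at least 1 library in place of 38, and receptors stayed at 35. The number in each single library was not taken on that scale. Several ligands lay close to the line, with tnfb at 1.07 CPM, il17a/f3 at 1.05 CPM and ccl19b at 1.03 CPM in Dx-IONP. In control tnfsf13b lay just under it, at 0.967 CPM. The gap between libraries in ligand numbers therefore depends on the scale. Of all rows 84.1% reached 1 CPM in at least 1 library, and their share in each library was not taken. Of the 38 tested ligands, 20 had their highest level in the Dx-IONP library, 10 in IC and 8 in control. A ligand that reached 1 CPM in Dx-IONP alone, such as tnfsf10l, csf3a or il1b, was bound by that filter to be highest there. Of the 35 tested receptors, 20 had their highest level in Dx-IONP, 13 had it in IC and 2 had it in control. Over all tested genes these shares were 39.8% for Dx-IONP, 31.3% for IC and 28.9% for control.

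The chemokine ligands with the most reads differed in opposite directions between libraries. CXCL12 (ENSDARG00000037116), which guides migrating cells through the receptor CXCR4, was at 36.9 CPM in Dx-IONP, 533 CPM in IC and 109.995 CPM in control. The IC library was thus highest and the Dx-IONP library lowest, with log2 ratios of -1.58 for Dx-IONP against control and 2.28 for IC against control. Its duplicate cxcl12b was at 28.5 CPM in Dx-IONP, 73.6 CPM in IC and 19.5 CPM in control. IC was again the highest, at a log2 ratio of 1.91 against control, but the Dx-IONP library lay above control here, by 0.54, which was not called. CXCL14, known in mammals as a chemokine of epithelia, went the other way with 238 CPM in Dx-IONP, 57.9 CPM in IC and 52.7 CPM in control. Only the Dx-IONP library stood out for CXCL14, at 2.17 against control with a counting interval of 2.13 to 2.22. Its 4 lanes there ran from 224 to 255 CPM, a spread wider than counting error alone.

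Summed over all 49 chemokine rows, the level was 413 CPM in Dx-IONP, 780 CPM in IC and 269.7 CPM in control. Reads are not corrected for length, so the sum weights long transcripts. The share of CXCL12 in this sum was 8.92% for Dx-IONP, 68.3% for IC and 40.8% for control. That of CXCL14 was 57.6% for Dx-IONP, 7.43% for IC and 19.5% for control. Without these 2 genes the sums were 138 CPM in Dx-IONP, 189 CPM in IC and 107 CPM in control.

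**Figure D2:**
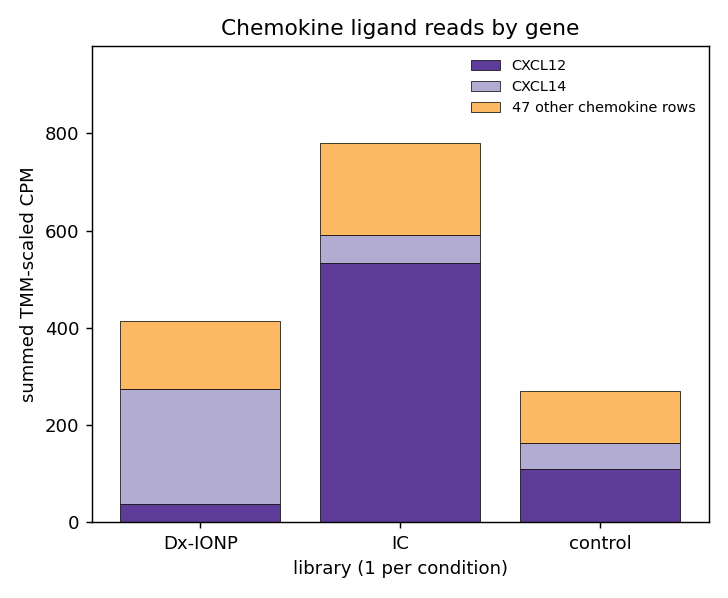
Summed TMM-scaled CPM of the 49 chemokine ligand rows in each library, 1 library per condition, split into CXCL12, CXCL14 and all others. The IC bar reaches 780 CPM and is mostly CXCL12, whereas the Dx-IONP bar reaches 413 CPM and is mostly CXCL14.

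The ccl25 duplicates, ligands of the receptor CCR9 that draws lymphocyte precursors to the thymus, parted from each other. ccl25a was at 0.695 CPM in Dx-IONP (33 reads), 32.9 CPM in IC and 15.6 CPM in control. That is 22.4-fold lower in Dx-IONP than in control and 2.11-fold higher in IC than in control. ccl25b was at 76.4 CPM in Dx-IONP, 52.5 CPM in IC and 30.2 CPM in control. Here Dx-IONP was the highest, 2.53-fold above control, a call lost at a log2 ratio of 0.97 when total reads alone set the scale. cxcl20 resembled ccl25a, with 0.527 CPM in Dx-IONP, 7.04 CPM in IC and 2.03 CPM in control.

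The cxcl8 genes, whose products attract neutrophils, did not move as a group. cxcl8a was at 7.60 CPM in Dx-IONP, 7.10 CPM in IC and 6.99 CPM in control and was called in no comparison. cxcl8b.1 had 3 reads in Dx-IONP, 44 reads in IC and 130 reads in control, a log2 ratio of -3.92 for Dx-IONP against control with a counting interval of -6.76 to -2.89. cxcl8b.3 had 0 reads in Dx-IONP, 76 reads in IC and 86 reads in control, at least 14.6-fold lower in Dx-IONP than in control. cxcl18b, another neutrophil attractant in zebrafish, was at 1.41 CPM in Dx-IONP, 2.97 CPM in IC and 1.61 CPM in control. It passed the rule only in Dx-IONP against IC, at -1.06, and fell short of it at -0.90 without lane 2.

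Chemokine genes named as numbered copies gave both the highest and the lowest chemokine ratios over the comparisons, at low read counts. They were grouped by name, and their likeness in sequence and their position were not examined. ccl20a.3, of the family that binds CCR6 in mammals, had 77 reads in Dx-IONP, 0 reads in IC and 4 reads in control. It was 37.7-fold higher in Dx-IONP than in control, and at least 27.5-fold higher than in IC. ccl39.3 had 51 reads in Dx-IONP, 1 read in IC and 26 reads in control, with log2 ratios of 1.83 (1.23 to 2.68) for Dx-IONP against control and -2.61 (-9.19 to -1.22) for IC against control. The copy ccl39.2 had 4 reads in Dx-IONP, 0 reads in IC and 153 reads in control, and was called lower than control in both Dx-IONP and IC. Salmon divides reads that fit several copies by likelihood, so the split between copies of like sequence is uncertain. ccl19a.1, a ligand of CCR7, had 78 reads in Dx-IONP, 6 reads in IC and 169 reads in control, and 76 of the control reads came from 1 lane. The remaining copies called somewhere were ccl34a.4, ccl39.7, ccl38.1, ccl34b.1 and cxcl18a.1, with between 0.0983 and 7.54 CPM. The call of ccl38.1 as higher in Dx-IONP than in control, at 1.14, rested on lane 3 and became 0.31 without it. Without the 11 tested copies of this kind, the lower ligands in IC against control numbered 1 and those in Dx-IONP against control 4.

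Growth factors of macrophages and neutrophils were mostly higher in the Dx-IONP library, with 3 of the 4 csf genes called against control, or 75.0% beside 20.9% of all tested genes. Of these, csf3a and csf3b were tested only because they reached 1 CPM in Dx-IONP, so the filter favoured their call. csf1b, a ligand of the macrophage receptor csf1r, was at 19.96 CPM in Dx-IONP, 3.03 CPM in IC and 3.07 CPM in control. Its log2 ratio for Dx-IONP against control was 2.69, with a counting interval of 2.51 to 2.90, and IC, at -0.02, was not called. The duplicate csf1a was at 9.62 CPM in Dx-IONP, 20.8 CPM in IC and 8.84 CPM in control. For csf1a it was IC that stood above, by 1.23 on the log2 scale, while Dx-IONP and control lay close. il34, the other ligand of csf1r, was at 10.7 CPM in Dx-IONP, 4.39 CPM in IC and 3.81 CPM in control, 2.81-fold higher in Dx-IONP than in control.

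csf3a, a granulocyte growth factor, was at 3.56 CPM in Dx-IONP (169 reads), 0.0983 CPM in IC (5 reads) and 0.312 CPM in control (29 reads). Dx-IONP was 11.42-fold above control, with a log2 interval of 2.94 to 4.14. IC was below control, by -1.40, and that call was lost without lane 3 (-1.16) or lane 4 (-0.92) and was -2.27 without lane 1. csf3b was at 1.03 CPM in Dx-IONP, 0.216 CPM in IC and 0.312 CPM in control, 3.31-fold higher in Dx-IONP than in control. The whole family summed to 34.2 CPM in Dx-IONP, 24.2 CPM in IC and 12.5 CPM in control.

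Most interleukins were too scarce to compare. Of 24 interleukin rows, 19 stayed under 1 CPM in every library. il1b (ENSDARG00000098700), the early inflammatory signal of macrophages and neutrophils, was at 3.26 CPM in Dx-IONP, 0.551 CPM in IC and 0.569 CPM in control. It was called higher in Dx-IONP than in control, and was tested only because it reached 1 CPM in Dx-IONP. Its 4 lanes ran from 2.94 to 3.73 CPM in Dx-IONP, 0.157 to 0.866 CPM in IC and 0.482 to 0.645 CPM in control. These lanes are splits of 1 library each, so their spread shows counting error and not spread between pools. il17a/f3, a ligand of the interleukin 17 receptors, had 50 reads in Dx-IONP, 17 reads in IC and 5 reads in control. It was 19.6-fold higher in Dx-IONP than in control, with a log2 interval of 2.98 to 5.98. In IC it was 6.22-fold higher than in control, with an interval of 1.14 to 4.43. It reached 1 CPM in Dx-IONP alone, which favours a higher call, and on total reads it reached 1 CPM in no library. IL16, a T cell attractant in mammals, was at 18.1 CPM in Dx-IONP, 69.8 CPM in IC and 11.9 CPM in control. IC was the high library, at 2.55 against control, while Dx-IONP lay 0.61 above control and was not called. il15, a lymphocyte growth factor, was at 10.3 CPM in Dx-IONP, 11.76 CPM in IC and 13.0 CPM in control and was called in no comparison.

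Of the 8 tested ligands of the TNF family, 4 were called in Dx-IONP against IC, where 50.6% of all tested genes were. TNFSF10, which triggers cell death through death receptors, was at 57.05 CPM in Dx-IONP, 56.1 CPM in IC and 37.6 CPM in control and was called in no comparison. tnfb, a duplicate of the TNF gene tnfa, was at 1.07 CPM in Dx-IONP, 0.924 CPM in IC and 0.430 CPM in control. Both Dx-IONP and IC passed the rule against control, at 1.26 for Dx-IONP and 1.05 for IC. The IC call was lost without lane 1 (0.94), without lane 3 (0.90) and with a prior count of 5 (0.98). tnfsf10l had 77 reads in Dx-IONP, none of them in lane 4, and 0 reads in IC and in control. It was at least 50.3-fold higher in Dx-IONP than in control, on reads whose lanes differed beyond counting error, and its fitted log2 ratio of 5.72 was 4.996 without lane 1 and 4.995 without lane 3. Against control, 2 of the 8 were higher in Dx-IONP, or 25.0% beside 20.9% of all tested genes, and none was lower. The higher ones, tnfb and tnfsf10l, reached 1 CPM in Dx-IONP only. On total reads 1 of 7 was higher, beside 2301 of 16802 genes. tnfsf10l3, tnfsf10l4 and tnfsf13b, at 0.531 to 1.64 CPM, were called only in Dx-IONP against IC, the first 2 higher and tnfsf13b lower. That last call, at -1.02, was lost without lane 1, without lane 2 and with a prior count of 5. Besides cxcl8a, il15 and TNFSF10, the tested ligands called in no comparison were ccl44, tnfsf11 and tnfsf12.

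**Figure D3:**
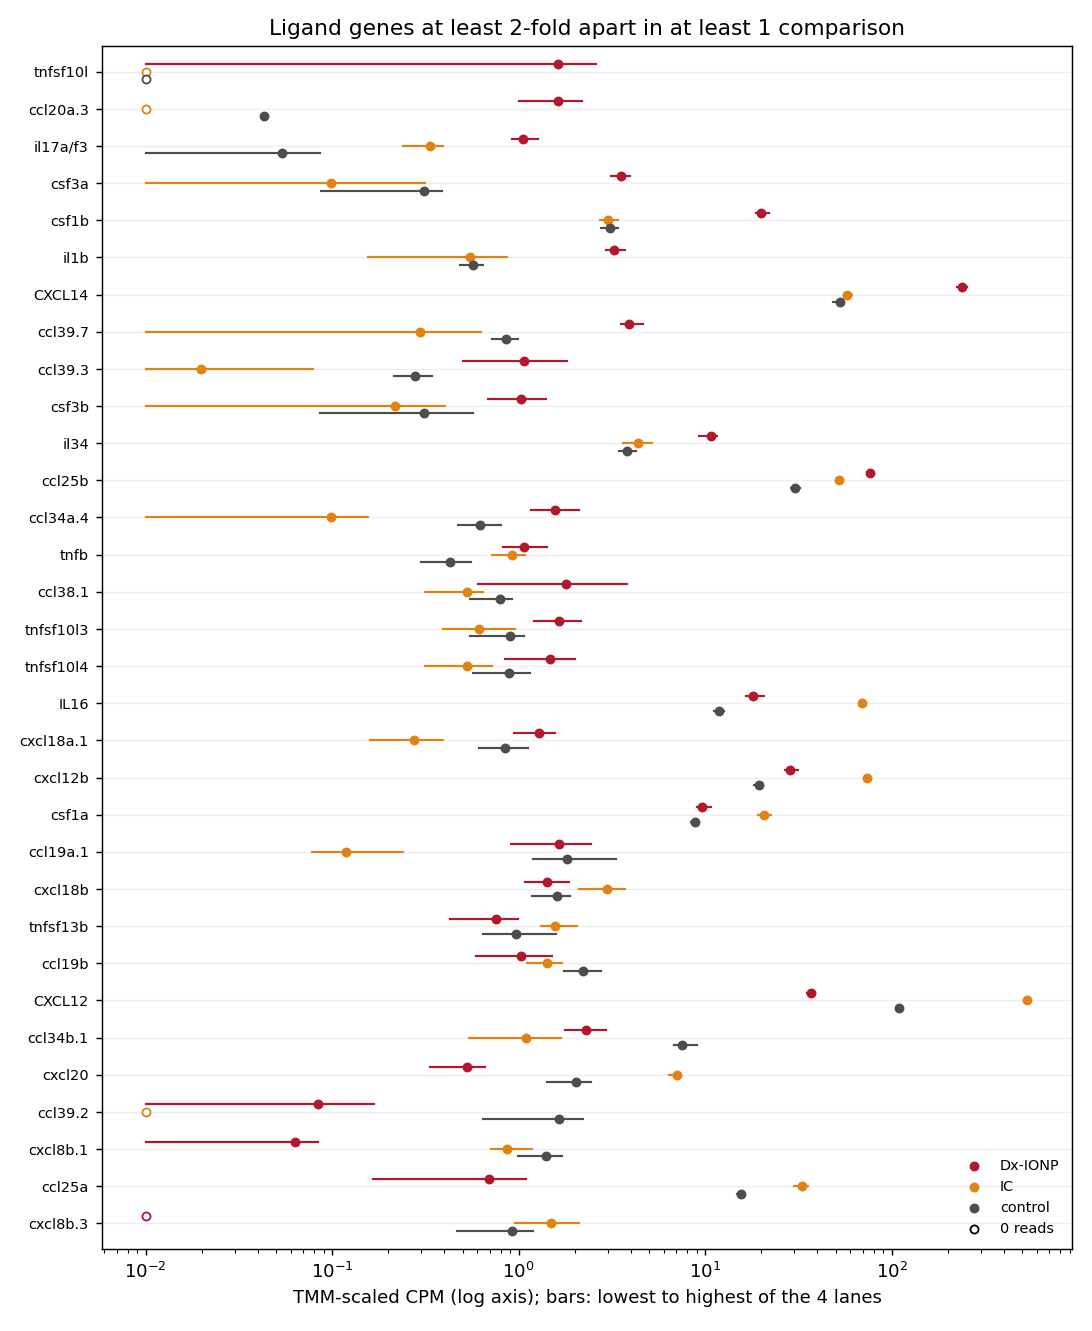
Level of each of the 32 ligands called in at least 1 comparison, as TMM-scaled CPM on a log axis, sorted by the ratio of Dx-IONP to control with the highest at the top. Points are libraries, bars run from the lowest to the highest of the 4 lanes (lanes at 0 reads are drawn at the left edge), and open circles mark libraries at 0 reads. Near the top the Dx-IONP point lies to the right of both others, as for csf1b at 19.96 CPM against 3.03 in IC and 3.07 in control, and near the bottom it lies to the left, as for ccl25a at 0.695 CPM against 32.9 in IC and 15.6 in control.

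Several of the best known inflammatory cytokines fell among the 83 genes under 1 CPM in every library, of which 56 were ligands and 25 receptors. tnfa had 3 reads in Dx-IONP and 0 in IC and in control. il6 had 10 reads in Dx-IONP, 0 reads in IC and 1 read in control. il11a had 11 reads in Dx-IONP, 0 reads in IC and 1 read in control. These are too few for a ratio to be given as a result. IL10, which limits inflammation, had 7 reads in Dx-IONP and 0 in IC and in control. The type I interferon ifnphi1 had 17 reads in Dx-IONP, 2 reads in IC and 4 reads in control. il12a, which drives type 1 responses, had 8 reads in Dx-IONP, 6 reads in IC and 19 reads in control. The control library was the deepest of the 3, so 1 read stood for 0.0211 CPM in Dx-IONP, 0.0197 CPM in IC and 0.0107 CPM in control. The interferon gamma gene ifng1 and the chemokine receptors CCR7 and CXCR5 were among 15 genes with no read in any library, which a floor of 3 reads limits to 0.0632 CPM in Dx-IONP, 0.0590 CPM in IC and 0.0322 CPM in control.

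Among receptors of colony-stimulating factors and chemokines, csf1ra, CSF3R, cxcr3.2 and both CXCR4 rows were called higher in Dx-IONP than in control, and CCR6 was called lower. Of 7 tested chemokine receptors, 3 were higher and 1 lower, where 20.9% of all tested genes were higher and 24.2% lower. On total reads 2 were higher and 1 lower, beside 2301 higher and 5334 lower of 16802 genes. csf1ra, the receptor of csf1 and il34 in macrophages and pigment cells, was at 44.5 CPM in Dx-IONP, 28.4 CPM in IC and 13.8 CPM in control. The log2 ratios against control were 1.68 for Dx-IONP and 1.04 for IC, and the IC call was lost without lane 2 (0.99) and with total reads as the scale (0.96). Its duplicate csf1rb, at 1.66 CPM in Dx-IONP, 2.62 CPM in IC and 1.90 CPM in control, was called in no comparison. CSF3R, the receptor of csf3 on neutrophils, was at 4.68 CPM in Dx-IONP, 2.89 CPM in IC and 0.870 CPM in control, 5.37-fold higher in Dx-IONP and 3.32-fold higher in IC than in control.

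CXCR4, the receptor of CXCL12, has 2 rows in the table. The row ENSDARG00000057633 was at 51.85 CPM in Dx-IONP, 6.21 CPM in IC and 5.07 CPM in control. Only Dx-IONP stood out, 10.2-fold above control with a log2 ratio of 3.35 and a counting interval of 3.21 to 3.50, the largest of any receptor. The row ENSDARG00000041959 was at 43.05 CPM in Dx-IONP, 27.5 CPM in IC and 12.4 CPM in control, and both Dx-IONP and IC were called against control, at 1.80 for Dx-IONP and 1.15 for IC. In the Dx-IONP library both CXCR4 rows were thus above control and their ligand CXCL12 below it. In IC that ligand was above control together with 1 of the 2 receptor rows. The duplicate ligand cxcl12b was not below control in Dx-IONP, at 0.54 and not called, and was above it in IC, at 1.91. Of the other chemokine receptors, cxcr3.2, a receptor of cxcl11 ligands, was at 5.69 CPM in Dx-IONP, 3.78 CPM in IC and 2.77 CPM in control. Its ratio of 1.03 for Dx-IONP against control fell under the line without lane 1 (0.90), without lane 3 (0.99) and on total reads (0.66). CCR6 (ENSDARG00000087474), the receptor of CCL20 in mammals, had 14 reads in Dx-IONP, 80 reads in IC and 122 reads in control, 4.45-fold lower in Dx-IONP than in control. The CCR9 row ENSDARG00000055186, at 1.18 CPM in Dx-IONP, 0.787 CPM in IC and 1.21 CPM in control, was called in no comparison. The other CCR9 row had 1 read in Dx-IONP, 47 reads in IC and 29 reads in control.

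Of 16 tested interleukin receptors, 6 were higher and 3 lower in Dx-IONP than in control. Of all tested genes 20.9% were higher and 24.2% lower. On total reads 4 of the 16 were higher and 3 lower, beside 2301 higher and 5334 lower of 16802 genes. The 6 higher ones were il17ra1a, il17rc, il4r.1, il13ra1, il11ra and il20ra, and the 3 lower ones, il10rb, il2rb and il2rgb, are given below. il17ra1a was at 38.2 CPM in Dx-IONP, 9.79 CPM in IC and 10.2 CPM in control, and il17rc, its partner in the receptor for interleukin 17A and F, was at 108 CPM in Dx-IONP, 47.3 CPM in IC and 30.5 CPM in control. Dx-IONP was above control by 1.90 for il17ra1a and 1.83 for il17rc, and IC was called for neither. IL17RD, a relative that also acts on growth factor signalling, was at 24.6 CPM in Dx-IONP, 17.4 CPM in IC and 15.0 CPM in control and was not called. il4r.1 was at 15.4 CPM in Dx-IONP, 11.0 CPM in IC and 4.43 CPM in control, and both Dx-IONP and IC were called against control. il13ra1 was at 20.8 CPM in Dx-IONP, 7.45 CPM in IC and 9.94 CPM in control, a ratio of 1.06 for Dx-IONP against control that was 0.70 on total reads. il13ra2, which binds interleukin 13, was at 11.06 CPM in Dx-IONP, 3.66 CPM in IC and 5.86 CPM in control, and was called only in Dx-IONP against IC. The ligands il4 and il13 stayed at 34 reads or fewer in every library.

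il11ra, the specific chain of the interleukin 11 receptor, was at 26.5 CPM in Dx-IONP, 12.6 CPM in IC and 3.74 CPM in control. It was 7.09-fold higher in Dx-IONP and 3.36-fold higher in IC than in control. il6st, the signalling chain that receptors for interleukins 6 and 11 share, was at 65.6 CPM in Dx-IONP, 217.7 CPM in IC and 61.7 CPM in control. Here IC alone was high, at 1.82 against control, and Dx-IONP lay 0.09 above control. il6r was at 9.20 CPM in Dx-IONP, 26.2 CPM in IC and 13.3 CPM in control, and passed the rule only as lower in Dx-IONP than in IC, at -1.51. The chains of 1 receptor complex therefore had their highest level in different libraries.

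Among interferon and interleukin 10 receptors, ifngr1, a chain of the interferon gamma receptor, was at 20.9 CPM in Dx-IONP, 4.68 CPM in IC and 3.46 CPM in control. It was 6.03-fold higher in Dx-IONP than in control, with a log2 interval of 2.41 to 2.78. Its partner chain ifngr2 was at 57.6 CPM in Dx-IONP, 124 CPM in IC and 83.2 CPM in control, and was called only as lower in Dx-IONP than in IC. il10rb, a chain that interleukin 10 and type III interferon receptors share in mammals, was at 36.8 CPM in Dx-IONP, 96.6 CPM in IC and 77.0 CPM in control, a ratio of -1.07 for Dx-IONP against control. il10ra stayed within 0.695 CPM in Dx-IONP, 0.846 CPM in IC and 1.096 CPM in control and was not called.

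Of the receptor chains of lymphocyte growth factors, il2rb and il2rgb were lowest in Dx-IONP. il2rb had 7 reads in Dx-IONP, 174 reads in IC and 105 reads in control, which is 7.65-fold lower in Dx-IONP than in control and 3.03-fold higher in IC. il2rgb, a form of the common gamma chain, had 10 reads in Dx-IONP, 89 reads in IC and 81 reads in control, 4.13-fold lower in Dx-IONP than in control. The other common gamma chain row, il2rga, had 25 reads in Dx-IONP, 24 reads in IC and 21 reads in control, and il21r.1 was at 1.33 CPM in Dx-IONP, 0.964 CPM in IC and 0.666 CPM in control and was called in no comparison. Lymphocyte markers were also low in Dx-IONP. Of 9 tested lymphocyte markers, il2rb and CCR9 among them, none was higher and 5 were lower in Dx-IONP than in control, with a median of -1.77. Of all tested genes 20.9% were higher and 24.2% lower, and il2rb, described above, is among the lower markers. The summed level of the 26 listed rows was 68.2 CPM in Dx-IONP, 408 CPM in IC and 424 CPM in control. GATA3, TOX and bcl11ba, which supply much of that sum, are also expressed in the nervous system, and their part in the result was not tested. Defining markers were near 0 in every library: cd4-1 had 0 reads in Dx-IONP, 4 reads in IC and 6 reads in control, and the T cell kinase lck had 16 reads in Dx-IONP, 28 reads in IC and 39 reads in control. RAG1, which rearranges antigen receptor genes, was at 2.25 CPM in Dx-IONP, 7.14 CPM in IC and 3.78 CPM in control and was not called against control.

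In the TNF receptor family, tnfrsf1b, a receptor of TNF, was at 12.4 CPM in Dx-IONP, 7.12 CPM in IC and 4.83 CPM in control. It was the only 1 of 5 tested family members called higher in Dx-IONP than in control, which is 20.0% beside 20.9% of all tested genes. Its ratio was 1.35, and 0.99 on total reads, where none of the 5 was called against control in Dx-IONP. tnfrsf11a, the receptor that drives osteoclast formation, was at 14.1 CPM in Dx-IONP, 38.7 CPM in IC and 16.0 CPM in control, called higher in IC than in control. tnfrsf14, a costimulatory receptor of lymphocytes in mammals, was at 25.2 CPM in Dx-IONP, 4.37 CPM in IC and 15.7 CPM in control, 3.59-fold lower in IC than in control. Its lanes in Dx-IONP differed beyond counting error, at 22.6 to 30.02 CPM. Of the 24 receptors called in some comparison, il20ra and ifnlr1 have no levels given above, and these lay between 1.24 and 17.5 CPM. The 11 tested receptors called in no comparison ran from -0.63 to 0.96 in Dx-IONP against control and from -0.61 to 0.78 in IC against control.

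**Figure D4:**
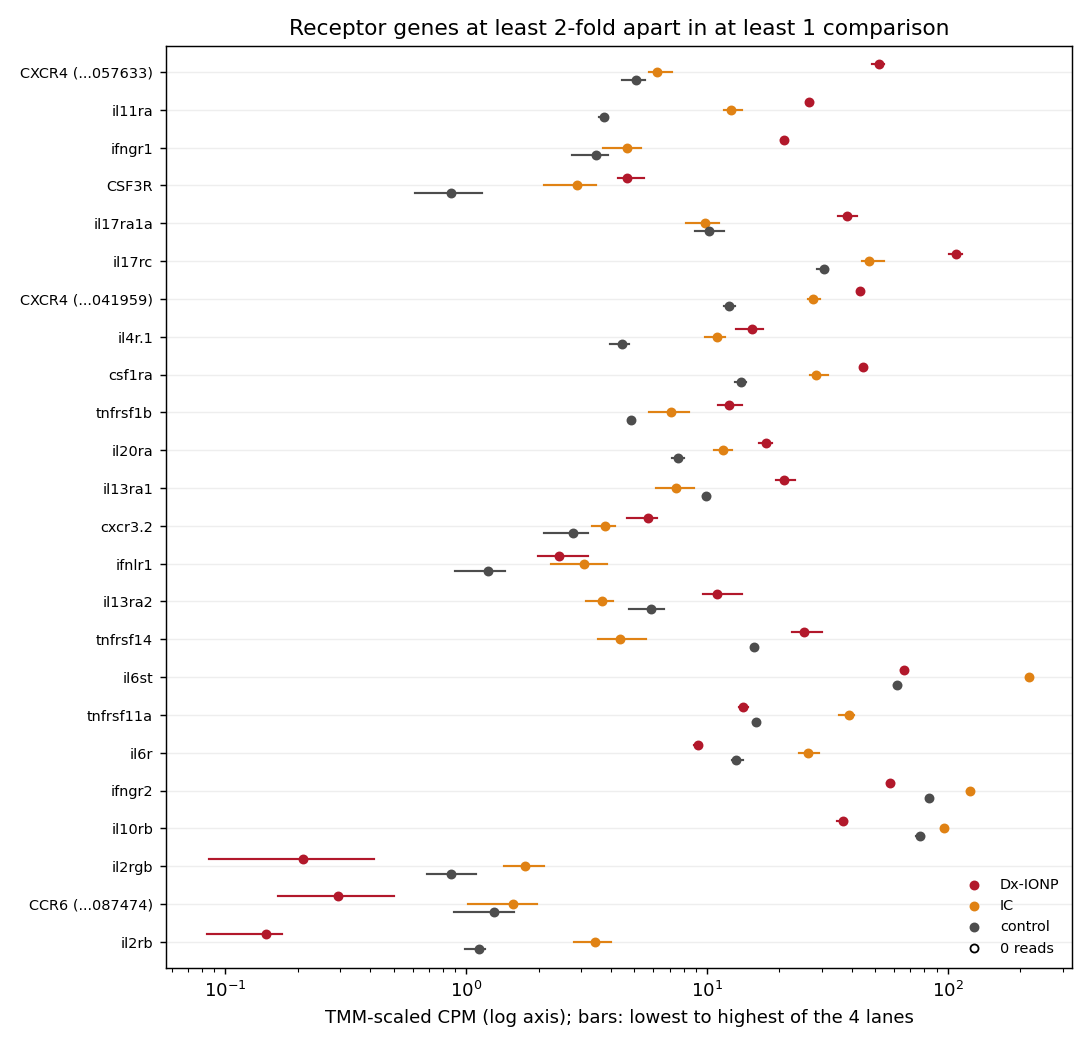
Level of each of the 24 receptors called in at least 1 comparison, as TMM-scaled CPM on a log axis, sorted by the ratio of Dx-IONP to control with the highest at the top. Points are libraries and bars run from the lowest to the highest of the 4 lanes; rows of a shared symbol carry the end of their identifier. The CXCR4 row ENSDARG00000057633 stands at 51.85 CPM in Dx-IONP against 6.21 in IC and 5.07 in control, il6st has its IC point at 217.7 CPM, far to the right, and il2rb its Dx-IONP point at 0.147 CPM, far to the left.

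Some SOCS genes are induced by JAK-STAT signalling and inhibit it. Of all 11 tested SOCS genes, 5 were higher and 2 lower in Dx-IONP against control, and 4 higher and 0 lower in IC against control. Of all tested genes 20.9% were higher and 24.2% lower in Dx-IONP, and 14.1% higher and 15.1% lower in IC. On total reads the SOCS genes gave 3 higher and 2 lower in Dx-IONP and 3 higher and 0 lower in IC. All 16802 genes tested on that scale gave 2301 higher and 5334 lower in Dx-IONP, and 2095 higher and 2820 lower in IC. socs9 was at 6.89 CPM in Dx-IONP, 4.76 CPM in IC and 1.81 CPM in control, above control in both Dx-IONP and IC, by 1.91 in Dx-IONP and 1.38 in IC. SOCS1 was at 4.55 CPM in Dx-IONP, 1.44 CPM in IC and 1.33 CPM in control, 3.41-fold higher in Dx-IONP than in control. The SOCS3 row ENSDARG00000025428 was at 13.3 CPM in Dx-IONP, 13.3 CPM in IC and 6.12 CPM in control. Both Dx-IONP and IC were thus 1.12 above control on the log2 scale, although on total reads Dx-IONP was at 0.75. The other SOCS3 row, ENSDARG00000026611, was at 25.7 CPM in Dx-IONP, 19.9 CPM in IC and 19.5 CPM in control and was called in no comparison.

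The SOCS6 rows also differed. ENSDARG00000058565 was at 14.7 CPM in Dx-IONP, 7.41 CPM in IC and 4.32 CPM in control and was called higher in Dx-IONP than in control, whereas ENSDARG00000015863 was called in no comparison. socs5b was at 32.96 CPM in Dx-IONP, 42.5 CPM in IC and 15.95 CPM in control, and socs5a at 31.2 CPM in Dx-IONP, 35.9 CPM in IC and 17.1 CPM in control. SOCS7 was at 10.1 CPM in Dx-IONP, 24.9 CPM in IC and 38.03 CPM in control, 3.78-fold lower in Dx-IONP than in control. SOCS2, a brake on growth hormone signalling, was at 3.62 CPM in Dx-IONP, 10.03 CPM in IC and 5.61 CPM in control, called only as lower in Dx-IONP than in IC. socs4 had 20 reads in Dx-IONP, 48 reads in IC and 136 reads in control, 3.47-fold lower in Dx-IONP than in control. Its call as lower in Dx-IONP than in IC, at -1.11, was lost without lane 1, 3 or 4. socs1b, the SOCS gene not tested, had 0 reads in Dx-IONP, 2 reads in IC and 7 reads in control.

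Inducible nitric oxide synthase, which makes nitric oxide as a defence product of phagocytes and epithelia, has 2 rows. The row ENSDARG00000031976 had 1703 reads in Dx-IONP, 60 reads in IC and 125 reads in control. Its log2 ratio for Dx-IONP against control was 4.71, with a counting interval of 4.48 to 5.01. The 4 Dx-IONP lanes, which are splits of 1 library, lay between 34.7 and 37.9 CPM, and the highest lane of IC or control was at 1.57 CPM. The row ENSDARG00000026925 had 0 reads in Dx-IONP, 2 reads in IC and 44 reads in control, but 40 of the 44 lay in lane 3, so the control lanes differed beyond counting error for it, and the reason was not tested.

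The 4 rows that match by name alone had roles outside cytokine signalling. The synaptic adhesion gene IL1RAPL1 has 2 rows, and with IL1RAPL2 they were called lower in Dx-IONP than in control in 2 of 3 cases. Of all tested genes 24.2% were lower. The IL1RAPL1 row not called, ENSDARG00000062045, was at 29.3 CPM in Dx-IONP, 67.3 CPM in IC and 42.4 CPM in control, a ratio of -0.53 for Dx-IONP against control. The row ENSDARG00000104853 was at 0.295 CPM in Dx-IONP, 2.62 CPM in IC and 3.26 CPM in control, and IL1RAPL2 at 0.316 CPM in Dx-IONP, 1.38 CPM in IC and 2.12 CPM in control. Markers of neurons and glia, given below, were low in the same library. il4i1, an amino acid oxidase, was at 6.25 CPM in Dx-IONP, 2.03 CPM in IC and 3.01 CPM in control, and its ratio of 1.05 against control was 0.97 without lane 3 and 0.68 on total reads.

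Genes that act below these receptors were taken from 7 lists, whose counts, like those of the marker lists after them, stand against 20.9% higher and 24.2% lower of all tested genes in Dx-IONP against control and 14.1% higher and 15.1% lower in IC against control. Counts on total reads stand against 2301 higher and 5334 lower of 16802 genes in Dx-IONP against control. In IC against control that scaling gave 2095 higher and 2820 lower. Of 14 tested NF-kB subunits and inhibitors, 6 were higher and 1 lower in Dx-IONP than in control, with a median of 0.77, or 0.40 on total reads. IKBKB, the kinase that releases NF-kB, was at 39.9 CPM in Dx-IONP, 4.58 CPM in IC and 2.79 CPM in control, a ratio of 3.82. The inhibitor nfkbiab, itself a target of NF-kB, was at 87.9 CPM in Dx-IONP, 10.8 CPM in IC and 38.5 CPM in control, so that it was higher in Dx-IONP and lower in IC than in control. RELA, a transcriptionally active subunit, was at 11.098 CPM in Dx-IONP, 9.50 CPM in IC and 3.08 CPM in control and was called higher than control in both Dx-IONP and IC. IC against control gave 2 higher and 3 lower in this list. Among 14 receptor-proximal adaptors and kinases, 6 were higher and 1 lower in Dx-IONP than in control, and 2 higher and 1 lower in IC. MYD88, the adaptor of interleukin 1 and Toll-like receptors, was at 60.8 CPM in Dx-IONP, 45.3 CPM in IC and 20.99 CPM in control. On total reads alone, each of these lists gave 3 higher and 1 lower in Dx-IONP against control.

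The JAK-STAT and interferon regulatory factor list gave 7 higher and 1 lower of 18 in Dx-IONP against control, with a median of 0.55, and 4 higher and 0 lower in IC against control. On total reads it gave 5 higher and 3 lower in Dx-IONP against control, with a median of 0.19. stat6, which transmits interleukin 4 and 13 signals, was at 67.6 CPM in Dx-IONP, 7.55 CPM in IC and 9.14 CPM in control. CISH, a SOCS relative induced by STAT5, was at 11.08 CPM in Dx-IONP, 1.40 CPM in IC and 2.25 CPM in control, and stat5b was at 57.8 CPM in Dx-IONP, 19.2 CPM in IC and 9.67 CPM in control. All of these were higher in Dx-IONP than in control. JAK1 had 1588 reads in Dx-IONP and 0 in IC and in control. A kinase that most cells use being at 0 in 2 libraries makes that row uncertain, and the reason was not tested. It is 1 of the 7 genes counted as higher.

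Of 13 interferon-stimulated genes, 4 were higher and 0 lower in Dx-IONP than in control, and 2 higher and 1 lower in IC than in control, at medians of 0.56 and 0.17. mxc, an antiviral GTPase, was at 17.5 CPM in Dx-IONP, 2.99 CPM in IC and 5.50 CPM in control. Of 6 inflammasome genes, 2 were higher in Dx-IONP than in control and the median was 0.33, or -0.04 on total reads. caspb, an inflammatory caspase that can process il1b, was at 906 CPM in Dx-IONP, 112 CPM in IC and 71.05 CPM in control. The 22 inflammatory output genes gave 10 higher and 4 lower in Dx-IONP than in control, and 3 higher and 3 lower in IC. On total reads the list gave 7 higher and 6 lower in Dx-IONP, with a median of 0.02 in place of 0.39, and 3 higher and 5 lower in IC. ACOD1, which makes the antimicrobial metabolite itaconate in macrophages, was at 3.37 CPM in Dx-IONP, 0.275 CPM in IC and 0.150 CPM in control. PTGS2, a prostaglandin synthase, was at 66.1 CPM in Dx-IONP, 25.4 CPM in IC and 17.2 CPM in control. The 4 lower genes were hamp, crp1, crp3 and 1 of the JUNB rows, and hamp, the iron hormone made by liver, was at 0.674 CPM in Dx-IONP, 1.77 CPM in IC and 15.3 CPM in control. Among 7 atypical chemokine receptors and chemotaxis partners, 2 were higher and 1 lower in Dx-IONP than in control, at a median of 0.33, or -0.03 on total reads. The higher ones were the ACKR4 rows, scavengers of ccl19 and ccl25 type ligands, of which 1 was at 14.4 CPM in Dx-IONP, 20.4 CPM in IC and 3.12 CPM in control.

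Markers of the cells that make and answer these signals differed between the same libraries, and their part in the results above was not tested. Of 11 tested neutrophil markers, 3 were higher and 2 lower in Dx-IONP than in control, with a median of -0.22. On total reads 2 were higher and 2 lower, with a median of -0.58. The listed rows summed to 235 CPM in Dx-IONP, 135 CPM in IC and 171 CPM in control, so the sum and the median pointed in opposite directions. CSF3R is on that list and is also a member, and CXCR1, a cxcl8 receptor, had 0 reads in Dx-IONP, 1 read in IC and 0 reads in control. Of 23 macrophage and microglia markers, 4 were higher and 4 lower in Dx-IONP than in control, with a median of 0.11, or -0.26 on total reads, and IC against control gave 3 higher and 8 lower. The sums were 3901 CPM in Dx-IONP, 669 CPM in IC and 2181 CPM in control, mostly from apoeb, which other tissues also express. 1 MPEG1 row was at 10.4 CPM in Dx-IONP, 4.56 CPM in IC and 4.48 CPM in control, and the other tested row was not called, while cd68 was at 12.4 CPM in Dx-IONP, 28.7 CPM in IC and 65.7 CPM in control. Opposite movements were also seen among the list's own members, with csf1ra higher and ccl34b.1 lower in Dx-IONP than in control.

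Marker lists of other tissues of the larva differed between the libraries too. Epidermal markers gave 14 higher and 2 lower of 21 in Dx-IONP than in control, at a median of 1.47, and summed to 116788 CPM in Dx-IONP, 36382 CPM in IC and 26393 CPM in control. Neuron and glia markers gave 2 higher and 16 lower of 19, at a median of -3.62, and photoreceptor markers 1 higher and 16 lower of 17, at a median of -6.09. Photoreceptor markers summed to 65.0 CPM in Dx-IONP, 1715 CPM in IC and 4010 CPM in control. Neuron and glia markers summed to 1443 CPM in Dx-IONP, 5674 CPM in IC and 6090 CPM in control. Erythroid markers gave 8 higher and 0 lower of 13 in Dx-IONP than in control, and 0 higher and 6 lower in IC, with sums of 5979 CPM in Dx-IONP, 1032 CPM in IC and 2302 CPM in control. Liver markers gave 1 higher and 9 lower of 21 in Dx-IONP than in control, and 0 higher and 18 lower in IC, with sums of 28109 CPM in Dx-IONP, 6526 CPM in IC and 27316 CPM in control. Endothelial markers gave 1 higher and 2 lower of 15 in Dx-IONP, and summed to 283 CPM in Dx-IONP, 378 CPM in IC and 237 CPM in control.

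**Figure D5:**
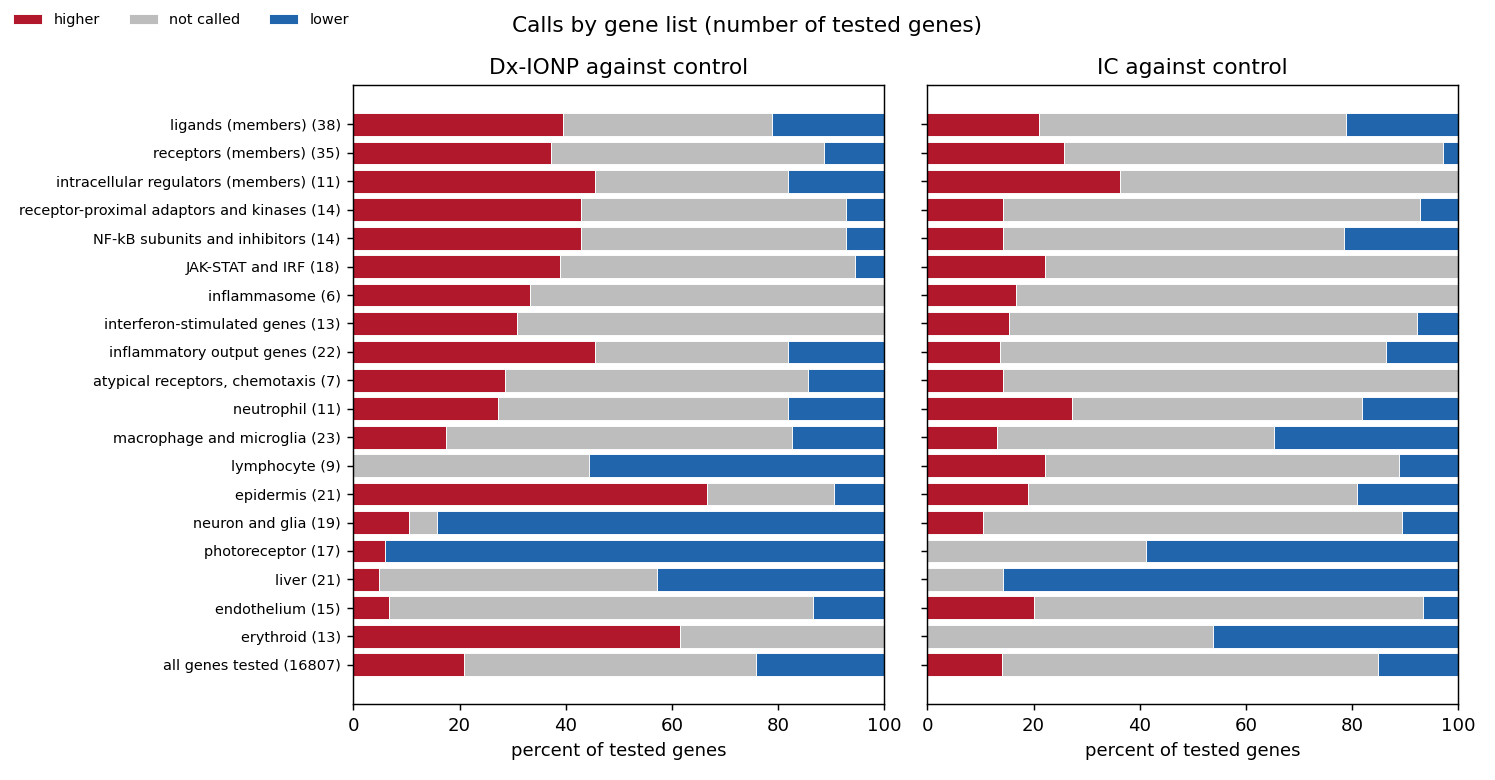
Percent of the tested genes of each list called higher (red), not called (grey) and called lower (blue), for Dx-IONP against control on the left and IC against control on the right, with the number of tested genes in brackets. In Dx-IONP against control the signalling lists lean to higher, with 6 of 14 for both the adaptors and the NF-kB list, where all tested genes gave 20.9% higher, while the neuron and photoreceptor lists are almost wholly lower. Scaling by total reads alone cut the higher calls of both signalling lists to 3, and those of all tested genes to 2301 of 16802.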

How the data were processed

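Per the labels, 20 larvae were pooled per condition and 1 poly(A) library per pool was read on 4 NextSeq lanes. The authors deposited estimated counts per gene and lane as whole numbers. The build GRCz11 and the tools DESeq2 1.34.0, R 4.1.2, Salmon 1.6.0 and FastQC are named, without their roles, per the submitters' processing notes. How strand, row filters and sums of transcripts were handled is not given in the sources used here. Symbols came from a name table (19182 of 19983 identifiers), which gave 7 of the member symbols to 2 rows each. List names missing there were looked up as synonyms in a RefSeq gene table of another assembly, GRCz12tu, used for names only, and 290 of 373 list names matched.

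Lanes were compared by chi-square and summed per library (55381504, 48283541 and 84043873 reads for Dx-IONP, IC and control). CPM used TMM factors (edgeR 4.0.16, R 4.3.3). Log2 ratios used a prior of 2 reads, scaled by library, and intervals are exact Clopper-Pearson at 95% (scipy 1.17.1). Calls needed 1 CPM in at least 1 library, a 2-fold difference and an interval off 1. Against a library at 0 reads, a fold uses a floor of 3 reads per library. The procedure was run on simulated counts with counting error only and a small part of the genes changed in 1 library. That setting is far from these data, so it does not show whether the scaling holds here. No test between conditions was made, and intervals and floors cover counting error only.

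The members and lists were chosen with earlier results of these data known. Values are given for fixed readouts and for the 12 members of a role with the largest ratio. Of the 51 readout names 44 matched a row, and cxcr2 and tnfrsf1a were among those that did not. IL16, ccl25b, TNFSF10, il15, il4r.1, ifngr2, the numbered chemokine copies outside the 12, and the genes named from the lists were added after their values were seen. Alternatives were DESeq2 1.42.0 size factors, total reads, other filters, prior counts and folds, and leaving out each lane.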

Additional observations from a re-analysis of the deposited data

Results flagged for a closer look

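Of 161 sets of 4 lanes with at least 20 reads, 5 had 1 lane far from the other 3, and chance gives about 1 in 20. The SOCS3 row ENSDARG00000026611 had 21.16 CPM in 1 lane of IC, where the others had 19.52 to 19.57 CPM. SOCS1 had 1.24 CPM in 1 lane of IC, below 1.49 to 1.52 CPM in the others. SOCS2 had 4.04 CPM in 1 lane of Dx-IONP, above 3.44 to 3.53 CPM in the others. socs9 had 7.56 CPM in 1 lane of Dx-IONP, above 6.56 to 6.72 CPM in the others. csf3a had 0.0876 CPM in 1 lane of control, below 0.381 to 0.387 CPM in the others. The call of csf3a in Dx-IONP against control held with each lane left out in turn.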

How the results depend on the processing

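Of 134 single calls of members, 55 held under every alternative run in which the gene was tested, and none changed sign there. A run that left a gene out was not counted. At 10 CPM or more only 63 of the calls remained to be compared. The number of 55 was set by the 4-fold line, where 79 fell short, and with a prior count of 5 only 2 did. Runs that only left out members could not change the calls of the rest. On total reads 108 of the 134 held, 16 fell short and the others no longer reached 1 CPM. Without lanes 1, 2, 3 and 4 in turn, 126, 131, 121 and 125 held, the others falling short or under 1 CPM. With DESeq2 size factors, a prior count of 0.5 or 5, without symbols shared by several rows and without any 1 lane, no count of members, ligands or receptors moved by over 1.5 times.

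Counts are given as higher and lower unless named otherwise. On total reads alone, Dx-IONP against control gave 21 of 85 members and 8 of 34 ligands higher, beside 2301 of 16802 genes. Without a filter on low levels, Dx-IONP against control gave 27 members lower, 24 ligands higher, 15 ligands lower and 7 receptors lower, and IC against control gave 17 members lower, 15 ligands higher, 13 ligands lower and 3 receptors lower. These were of 157 members, 83 ligands and 56 receptors. All 19489 genes gave 3914 and 4680 in Dx-IONP against control and 2654 and 2989 in IC against control. At 10 CPM or more, Dx-IONP against control gave 19 and 4 members, 4 and 2 ligands and 1 receptor lower, with a receptor median of 1.06. IC against control then gave 1 member lower, 5 and 0 ligands, and medians of 0.63 for members and 0.80 for ligands. Dx-IONP against IC then gave 12 and 13 members, 3 and 5 ligands and 5 receptors lower, with a ligand median of -0.19. At this level 42 members, 11 ligands and 21 receptors were tested, of 11648 genes in all. Those 11648 gave 2539 and 2479 in Dx-IONP against control and 1750 and 1633 in IC against control. In Dx-IONP against IC they gave 2915 and 2870.

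At a 1.5-fold line, IC against control gave 36 and 19 members, 13 ligands lower and 17 and 3 receptors, and Dx-IONP against IC 13 receptors higher. These were of 89 members, 38 ligands and 35 receptors. All 16807 tested genes gave 4470 and 4600 in IC against control and 5822 and 5803 in Dx-IONP against IC. At a 4-fold line, Dx-IONP against control gave 13 and 8 members, 8 and 4 ligands and 4 and 2 receptors. IC against control gave 3 and 5 members, 3 and 5 ligands and 0 and 0 receptors. Dx-IONP against IC gave 16 and 10 members, 5 ligands lower and 3 and 3 receptors. At this line all 16807 tested genes gave 1122 and 2115 in Dx-IONP against control and 312 and 510 in IC against control. In Dx-IONP against IC they gave 1282 and 2222.

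Both of the following were chosen after seeing the data. Leaving out the numbered chemokine copies left 78 tested members and 27 tested ligands. Dx-IONP against control then gave 4 ligands lower, IC against control 2 members and 1 ligand lower, and Dx-IONP against IC 10 ligands higher. Without members whose lanes differed beyond counting error, IC against control gave 0 receptors lower. The receptor left out was tnfrsf14, whose lanes differed in Dx-IONP, a library outside that comparison, so this does not bear on its call in IC.

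No paired analysis was possible because each condition was 1 library. Spread between animals or pools is unknown, and depth limits the 83 genes under 1 CPM, for which no ratio is given.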

Other observations

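Among the genes at low counts, some had most or all of their reads in 1 library. ccl39.1 had 16 reads in Dx-IONP and 0 in IC and in control. il19l, a relative of interleukins 19, 20 and 24, had 8 reads in Dx-IONP and 0 in IC and in control. il15l had 0 reads in Dx-IONP, 14 reads in IC and 0 reads in control. All 14 lay in 1 lane of IC, at 1.09 CPM there, so they do not speak for the library as a whole. tnfsf18 had 12 reads in Dx-IONP, 6 reads in IC and 0 reads in control. The cxcl11 copies, ligands of cxcr3, were seen mainly in control: cxcl11.6 had 0 reads in Dx-IONP, 2 reads in IC and 26 reads in control, and cxcl11.7 had 0 in Dx-IONP, 4 reads in IC and 19 reads in control. ccl39.6 had 5 reads in Dx-IONP, 17 reads in IC and 71 reads in control. il15ra had 3 reads in Dx-IONP, 4 reads in IC and 25 reads in control, of which 19 lay in 1 lane.

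These genes were named after their reads were seen, and none is given a ratio.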
